A study of Mus musculus with 8 samples.

Results

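Transcripts of 9 acute phase and complement genes were followed across 8 one-colour arrays of primary mouse aortic smooth muscle cells. The genes were Saa1, Saa2, Saa3, Lcn2, Hp, Ptx3, C3, C4b and Cfb, taken by the gene name that the scanner files give to each probe. They had 12 of the 41174 probes on the array, and they were 9 of the 14889 genes and transcripts that passed the filter on dim signals (well above background in 4 or more of the 8 hybridisations). The genes were chosen by their levels and spread over these same 8 arrays, so those values are given as a description with no test.

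The AngII+CsA group consisted of 4 cultures with 1 µM angiotensin II, a vasoconstrictor peptide, and 200 ng/ml cyclosporin A, which inhibits the phosphatase calcineurin. The AngII group consisted of 4 cultures with the same dose of angiotensin II and no cyclosporin. All cultures were of C57BL/6 aortas, are described as independent, and were grown in medium with serum. Every level below is thus one under angiotensin, and untreated cells were not analysed here. The 2 arrays of a replicate number sat on 1 slide and were scanned together, so culture number and slide cannot be told apart. Precision is limited by having 4 arrays a group.

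Acute phase proteins are secreted factors whose synthesis rises during inflammation, mainly in liver but also in vessel wall, fat and other tissues. Interleukin 6 and interleukin 1 drive them through STAT3, C/EBP and NF-kappaB transcription factors. Serum amyloid A proteins travel on lipoproteins, haptoglobin binds free haemoglobin, lipocalin 2 binds bacterial siderophores, and pentraxin 3 binds microbes and complement C1q. Complement C3 is the hub of the complement cascade, C4 belongs to its classical and lectin pathways, and factor B to its alternative pathway.

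The probe sequences are shown for the genes whose probes disagreed or were listed for more than 1 gene, since that decides what a signal can stand for. Positions follow build mm7, as the files give them, and all probes have 60 bases. Exon boundaries were not used here. The Saa3 probe at chr7:42888862-42888921 on the minus strand carried RefSeq accessions of both Saa3 and Saa1 in the files. The Saa1 probe that gave signal lies at chr7:42916901-42916960 on the minus strand. The other Saa1 probe spans chr7:42916998-42917470 on the minus strand, 473 bases of genome. The C4b probe at chr17:32815561-32815620 on the minus strand carried accessions of both C4b and its close paralog C4a.
Saa3 probe: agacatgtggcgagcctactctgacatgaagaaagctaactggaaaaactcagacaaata
Saa1 probe with signal: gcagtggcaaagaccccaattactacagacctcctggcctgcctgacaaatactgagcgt
Saa1 probe without signal: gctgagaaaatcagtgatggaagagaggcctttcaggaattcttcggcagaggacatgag
C4b probe: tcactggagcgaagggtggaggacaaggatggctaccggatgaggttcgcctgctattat

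The other probes used were those of Saa2 at chr7:42930366-42930425, Lcn2 within chr2:32392828-32393072, Hp at chr8:108175404-108175463, C3 at chr17:55414567-55414626, Cfb within chr17:32952681-32953037 and Ptx3 at chr3:66326415-66326474. Among RefSeq protein-coding genes Saa3, Saa4, Saa1 and Saa2 are consecutive on chromosome 7. On chromosome 17 Cyp21a1 lies between C4b and C4a, and Cfb is next to C2. A dedicated C4a probe and both Saa4 probes were well above background on 0 of 8 arrays.

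Saa3, the serum amyloid A gene that mice express outside the liver, varied more between cultures than almost any other transcript, in both treatments. Its log2 signal relative to the 75th percentile of the array, called the log2 level below, was 4.82, 0.54, -0.98 and -1.24 in AngII+CsA replicates 1 to 4. In AngII replicates 1 to 4 it was 4.77, 0.56, -0.84 and -1.09. Both replicate 1 arrays were therefore far above the other 6, both replicate 2 arrays were intermediate, and the groups overlapped completely. The highest array was 66.8-fold above the lowest, whereas the 2 arrays of a pair differed by at most 1.11-fold.

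That range of 6.06 log2 ranked 6 among the 14889 genes tested, and 0.0403% of them had a range at least as wide. Corrected for background with normexp it was 4.85 log2, and in the authors' deposited table the Saa3 range was 6.11 log2. Group means were 0.78 ± 2.80 with AngII+CsA and 0.85 ± 2.71 with AngII (SD, n = 4 each).

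The 250 bases before the start of Saa3 are shown because Saa3 had the widest range of the 9 genes, with matches to the C/EBP motif TTNNGNAA in capitals. The window is chr7:46715677-46715926 on the minus strand of GRCm38.p6, from RefSeq.
Saa3 upstream window: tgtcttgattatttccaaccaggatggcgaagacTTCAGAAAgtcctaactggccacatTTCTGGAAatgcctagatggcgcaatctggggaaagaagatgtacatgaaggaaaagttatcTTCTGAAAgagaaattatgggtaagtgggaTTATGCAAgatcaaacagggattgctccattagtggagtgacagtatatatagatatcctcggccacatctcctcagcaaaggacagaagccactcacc

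The window held 4 such matches on its own strand, starting 216, 191, 129 and 99 bases before the start. Windows were given for 6 of the 9 genes, and 6 of 6 held the C/EBP motif on either strand, as did 36.8% of 32851 windows of the same length. The NFAT core GGAAA, the short motif bound by the factors that calcineurin activates, was in 4 of 6 windows and in 55.6% of all. It had 4 matches in the Saa3 window, 1 of which overlapped a C/EBP match. The NF-kappaB consensus and the STAT motif TTCNNNGAA were in 0 of 6 windows and in 7.25% and 7.02% of all. The Saa1 and Saa2 windows were 95.2% identical in a global alignment, and the Saa3 window was 61.6% identical to that of Saa1 and 60.8% to that of Saa2.

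**Figure D1:**
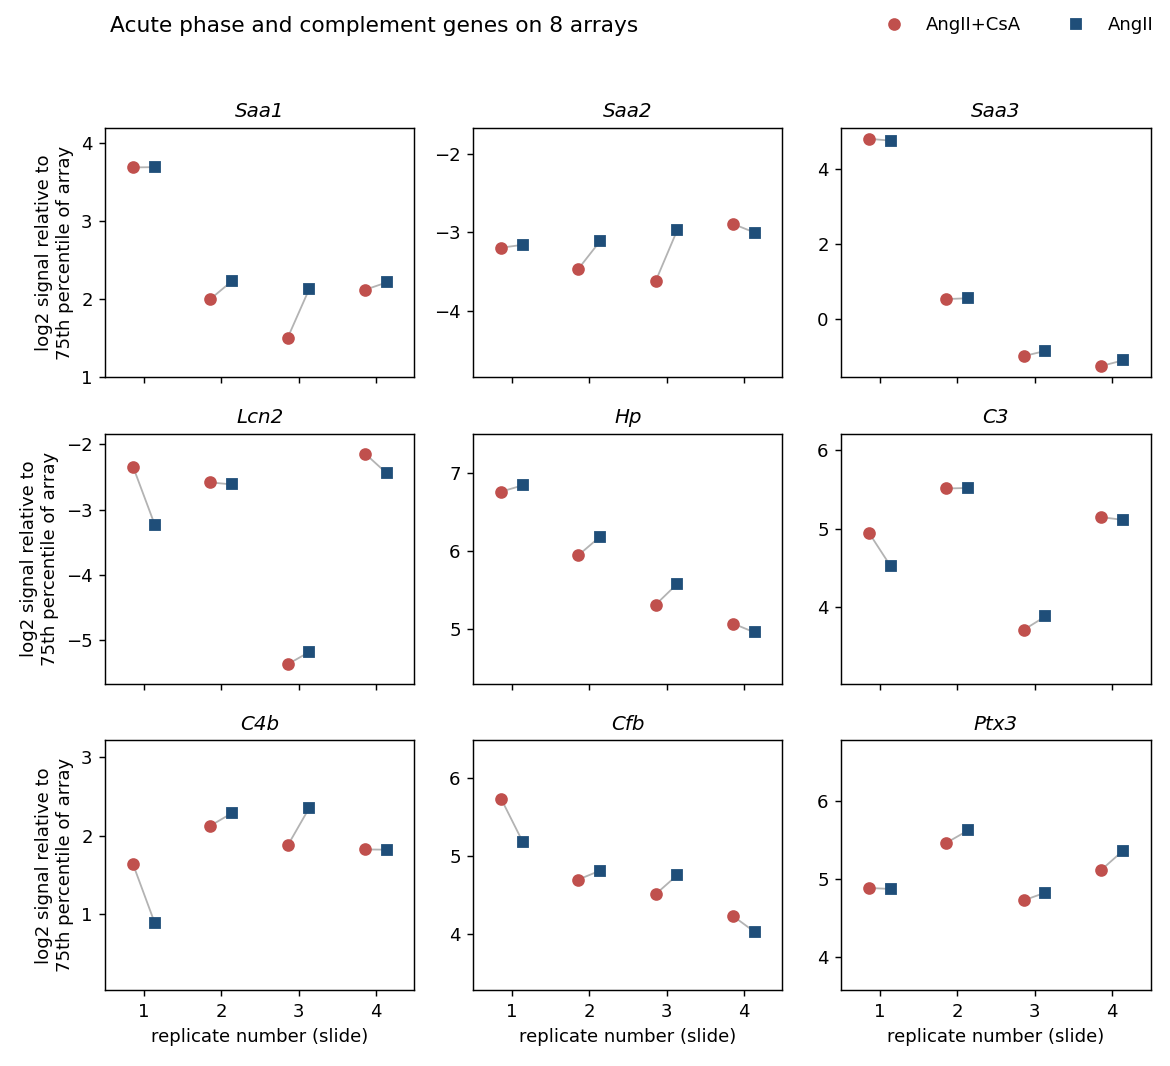
Log2 level (y axis, log2 signal relative to the 75th percentile of the array) of the 9 genes by replicate number, which is also the slide (x axis). Circles are AngII+CsA and squares AngII, 1 point an array, joined within a pair. The y axes differ between panels. Saa3 reaches 4.82 and 4.77 on the replicate 1 arrays and lies between -1.24 and 0.56 on the other 6.

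Saa1, a serum amyloid A gene induced in mouse liver in inflammation, was also highest in replicate 1. It measured 3.69, 1.999, 1.504 and 2.12 on the log2 scale in AngII+CsA replicates 1 to 4, against 3.69, 2.23, 2.13 and 2.21 in AngII replicates 1 to 4. The mean of replicate 1 stood 1.52 log2 above the next number, and the groups overlapped. The other Saa1 probe was above background on 0 of 8 arrays, so the Saa1 values rest on 1 probe.

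Saa2, the neighbouring liver gene, was near background throughout. The values were -3.20, -3.47, -3.62 and -2.89 in AngII+CsA replicates 1 to 4, and -3.16, -3.11, -2.97 and -3.001 in AngII replicates 1 to 4. Both replicate 3 arrays were not well above background, and Saa2 did not share the high replicate 1 level of Saa3 and Saa1. Its means were -3.29 ± 0.32 with AngII+CsA and -3.06 ± 0.09 with AngII (SD, n = 4 each).

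Hp, which encodes haptoglobin, followed the same order over the replicate numbers as Saa3 with a smaller span. Log2 levels of 6.77, 5.95, 5.32 and 5.08 were measured in AngII+CsA replicates 1 to 4, against 6.85, 6.19, 5.59 and 4.96 in AngII replicates 1 to 4. The numbers ranked 1, 2, 3 and 4 from high to low in both groups, and the mean of replicate 1 was 3.45-fold that of replicate 4.

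Lcn2, which encodes lipocalin 2, was close to background. The log2 level was -2.34, -2.58, -5.37 and -2.14 in AngII+CsA replicates 1 to 4, against -3.23, -2.61, -5.19 and -2.44 in AngII replicates 1 to 4. Both replicate 3 arrays were below background and are only bounded there. The range of 3.23 log2 was 0.35 log2 with normexp background correction, so its size depends on how dim signals are treated.

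Ptx3, which encodes pentraxin 3, had the narrowest range of the 7 genes that were above background on all 8 arrays. Its log2 level was 4.88, 5.46, 4.72 and 5.11 in AngII+CsA replicates 1 to 4, against 4.87, 5.62, 4.82 and 5.35 in AngII replicates 1 to 4. Its range was 0.90 log2 as scaled here and 1.34 log2 after quantile normalization.

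A second Ptx3 probe, at chr3:66326370-66326429, behaved otherwise. It was above background on the replicate 1 arrays alone, at -0.65 with AngII+CsA and -0.49 with AngII, and lay between -6.00 and -5.25 on the other 6. The 2 Ptx3 probes share 15 bases at chr3:66326415-66326429 on the plus strand, shown here in capitals because they overlap only there.
Ptx3 probe overlap: TGTTTATCTTGGCAA

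Probes above background on both arrays of a replicate number and on no other array numbered 416 (1.01%) for replicate 1, 388 for replicate 2, 6 for replicate 3 and 61 for replicate 4. The second Ptx3 probe was thus 1 of 416 with that pattern.

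C3, which encodes the central complement component, was lowest in replicate 3 and highest in replicate 2. On the log2 scale it stood at 4.94, 5.51, 3.70 and 5.15 in AngII+CsA replicates 1 to 4, against 4.51, 5.52, 3.87 and 5.11 in AngII replicates 1 to 4. The means of replicates 2 and 3 were 1.73 log2 apart. The C3 probe was printed 10 times on each array, with an SD of 0.05 to 0.09 log2 between these spots. That SD covers repeat spots within an array and leaves out the variation between cultures and arrays.

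A second C3 probe, within chr17:55435522-55435679, gave 1.27, 0.76, 0.44 and 0.33 in AngII+CsA replicates 1 to 4 and 0.09, 0.95, 0.55 and 0.33 in AngII replicates 1 to 4. It was higher with AngII+CsA in pair 1, by 1.18 log2 against 0.43 log2 for the first probe, but was not lowest in replicate 3.

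C4b, which encodes complement C4, differed mainly on 1 array. Its log2 level was 1.63, 2.13, 1.87 and 1.82 in AngII+CsA replicates 1 to 4, against 0.88, 2.29, 2.36 and 1.82 in AngII replicates 1 to 4. AngII replicate 1 was the lowest, so that the number with the highest Saa3 had the lowest C4b.

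Cfb, which encodes complement factor B, ran with Saa3 and Hp. Its log2 level was 5.74, 4.70, 4.51 and 4.23 in AngII+CsA replicates 1 to 4, against 5.18, 4.81, 4.76 and 4.03 in AngII replicates 1 to 4. Replicate 1 was highest and replicate 4 lowest in both groups, a 2.51-fold span between their means.

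The 9 genes thus did not move over the cultures as a single block. Replicate 1 had the highest mean for 4 of them (Saa3, Saa1, Hp and Cfb), which 26.8% of all genes tested also had. Replicate 3 had the lowest mean for 5 (Saa1, Saa2, Lcn2, C3 and Ptx3), beside 16.7% of all genes. Of these, Saa2 and Lcn2 were not well above background on either replicate 3 array, so their levels there were not reliably measured. The Saa2 means of replicates 2 and 3 were -3.288 and -3.294. The full order 1, 2, 3, 4 from high to low was that of Saa3, Hp and Cfb, 3 of the 9, and of 8.37% of all genes. The order 2, 4, 1, 3 was that of C3 and Ptx3, 2 of the 9, and of 5.47% of all genes. It was the order of their first probes, and their second probes had other orders. A range above 2 log2 was found in 3 of the 9 (Saa3, Lcn2 and Saa1) and in 15.1% of all genes, and a range above 1 log2 in 7 of the 9 and in 63.1% of all genes. That of Lcn2 rests on replicate 3 values below background and was 0.35 log2 with normexp. Their median range was 1.82 log2, against 1.18 log2 over all genes tested.

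**Figure D2:**
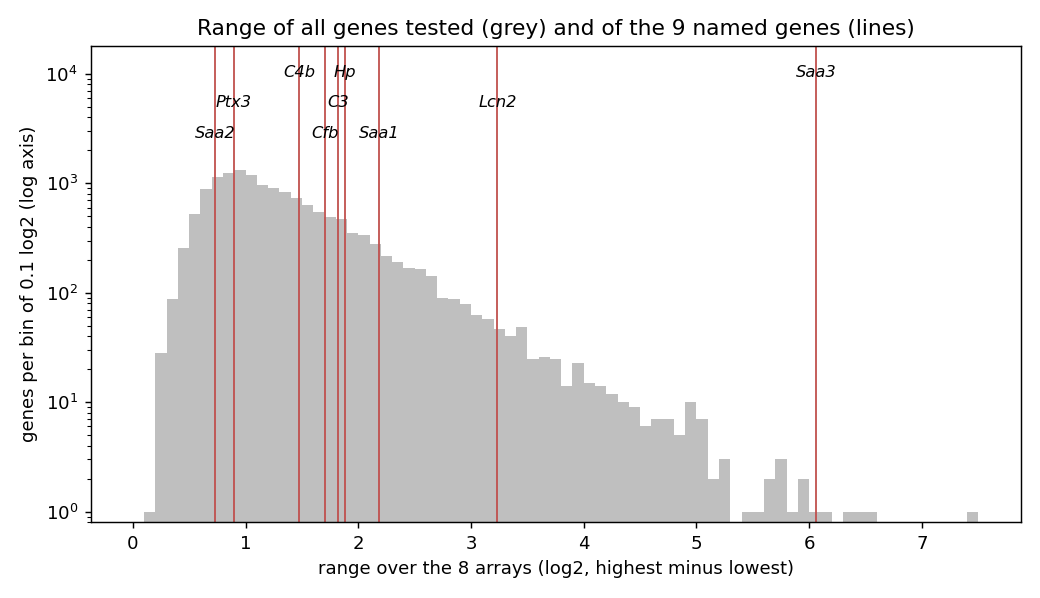
Distribution of the range over the 8 arrays (x axis, log2, highest minus lowest array) for the 14889 genes tested (grey bars, number of genes per bin on a log axis), with a line at each of the 9 genes. Saa3, at 6.06 log2, lies at the far right, and Saa2 and Ptx3 lie below the median of 1.18 log2.

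Markers of other cells differed between the cultures too. The summed linear signal of 8 adventitial fibroblast markers, relative to the 75th percentile, ranged from 351 to 1151 with AngII+CsA and from 310 to 1197 with AngII. By replicate number it averaged 1174, 740, 426 and 331. Most of that sum is Dcn, at 10.02, 9.32, 8.60 and 8.25 log2 in AngII+CsA replicates 1 to 4 and 10.05, 9.498, 8.47 and 8.02 log2 in AngII replicates 1 to 4. The markers did not share an order. Dcn and Pdgfra were highest in replicate 1 and lowest in replicate 4, as Saa3 was. Lum was also highest in replicate 1, at 4.53 log2 with AngII+CsA and 4.49 log2 with AngII, and lowest in replicate 3. Ly6a was at -1.42 and -1.33 log2 on the replicate 1 arrays and at -3.84 log2 or lower elsewhere. Thy1 was lowest in replicate 1 and highest in replicate 4, and Pi16 was lowest in replicate 1. Of these markers 5 of 8 were above background on at least 4 arrays, Cd34 was on 0, and Ly6a and Dpt each on 2. The sum of 8 smooth muscle markers ran from 221 to 1216 with AngII+CsA and from 290 to 1378 with AngII, averaging 256, 718, 1294 and 1241 by number. Tagln, Acta2 and Cnn1 carry that sum, and Myh11 did not follow it, at 0.89, 0.70, 0.48 and 0.19 log2 in AngII+CsA replicates 1 to 4 and 0.16, 0.58, 0.48 and -0.30 log2 in AngII replicates 1 to 4. Cnn1 also differed by -2.70, -1.504, -1.28 and -1.34 log2, AngII+CsA minus AngII, in pairs 1 to 4. It did not pass (adjusted p = 0.46 by limma with the block). The sum thus varies within pairs as well as between cultures. Of the smooth muscle markers, 7 of 8 were above background on at least 4 arrays, and the defining factor Myocd was on 1. The part of cell composition in the levels of Saa3, Saa1, Hp and Cfb was not tested, and fewer cells of a type and less RNA per cell cannot be told apart in these samples.

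Markers of 5 further cell types were also summed. Of 6 neutrophil markers on the array 1 was above background on at least 4 arrays and Ngp was on 0, with sums of 0.408 to 0.784 with AngII+CsA and 0.501 to 0.780 with AngII. For 6 hepatocyte markers the number was 2, with Ttr, Apoa2 and Cps1 on 0 arrays and sums of 1.91 to 2.41 with AngII+CsA and 1.77 to 2.72 with AngII. For 7 adipocyte markers it was 3, with Lep on 0 and sums of 0.595 to 0.901 with AngII+CsA and 0.569 to 1.03 with AngII. For 7 macrophage markers it was 3, with Adgre1 and Mrc1 on 0 and sums of 6.65 to 10.9 with AngII+CsA and 7.33 to 11.95 with AngII. For 9 endothelial markers it was 5, with Cdh5 and Tie1 on 0 and sums of 1.13 to 1.78 with AngII+CsA and 1.22 to 1.78 with AngII. Single macrophage markers did not move together. Cd14, which has the highest signal in that sum, was 2.59, 2.16, 3.11 and 2.51 log2 in AngII+CsA replicates 1 to 4 and 2.51, 2.42, 3.24 and 2.95 log2 in AngII replicates 1 to 4. Lyz2 was above background on the replicate 1 arrays alone, at -1.23 log2 with AngII+CsA and -1.12 log2 with AngII, and Ptprc on AngII replicate 1 alone. Their part in the Saa3 level was not tested.

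**Figure D3:**
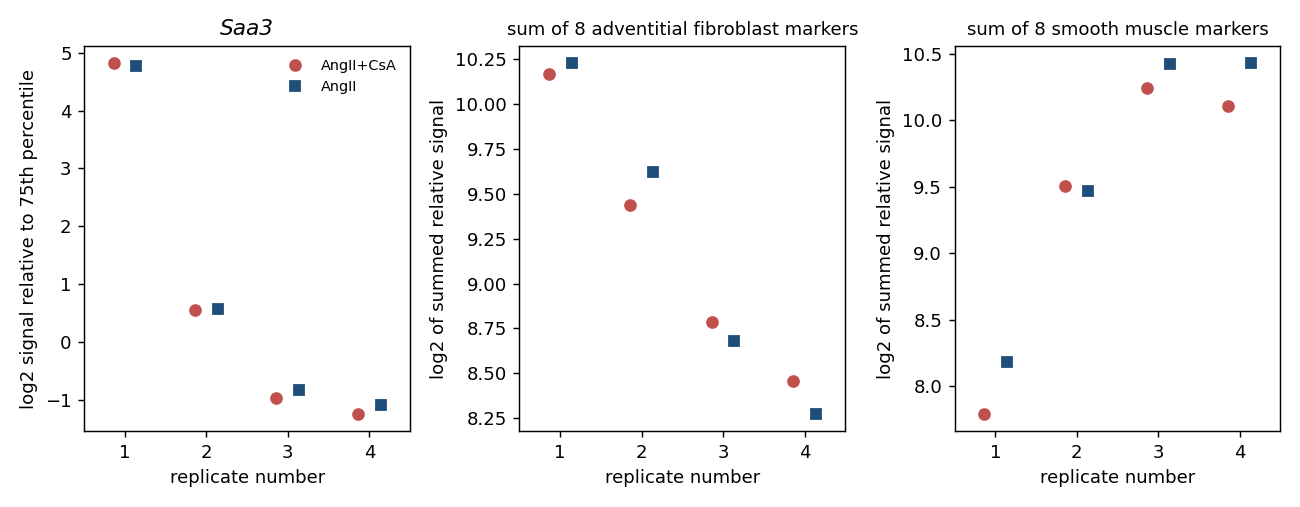
Saa3 log2 level (left) beside the log2 of the summed linear signal of 8 adventitial fibroblast markers (middle) and 8 smooth muscle markers (right), by replicate number (x axis). Circles are AngII+CsA and squares AngII, 1 point an array. The fibroblast sum averages 1174 in replicate 1 and 331 in replicate 4, and the smooth muscle sum 256 and 1241.

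The comparison that the study made asks which of these transcripts cyclosporin changed in angiotensin-treated cells. None of the 9 genes passed the test in either direction. In limma with the replicate number as a block, the smallest adjusted p among them was 0.893 and the largest 0.986, and 0 of 9 passed at an unadjusted p under 0.05, beside 5.27% of all genes. In the fit on the groups alone 0 of 9 passed and each adjusted p was 1, and 0 of 9 passed at an unadjusted p under 0.05, beside 0.289% of all genes. Of all 14889 genes, 0% passed in the fit on the groups and 0.0269% in the blocked fit. The 4 genes that passed in the blocked fit, all lower with AngII+CsA, were Rcan1, Serpinb1a, Serpinb1b and Serpinb1c. For 0 of the 9 genes did the AngII+CsA and AngII arrays not overlap, beside 0.369% of all genes.

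For Saa3 the difference was -0.07 log2, with a 95% interval of -0.31 to 0.18 (limma with the block). The interval corresponds to 0.807-fold to 1.13-fold. Without the block its standard error was 1.49 log2, against 0.10 log2 with it. With single arrays left out of the fit on the groups alone the Saa3 difference ran from -1.41 without AngII+CsA replicate 1 to 1.24 without AngII replicate 1, since each of those fits leaves 1 replicate 1 array without its partner. With whole pairs left out it stayed between -0.10 and -0.04.

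The other intervals with the block were wider. They ran from -0.56 to 0.08 for Saa1 around a difference of -0.24, from -0.60 to 0.13 for Saa2 around -0.23, and from -0.19 to 0.70 for Lcn2 around 0.26. For Hp the interval was -0.39 to 0.15 around -0.12 and for Ptx3 -0.37 to 0.12 around -0.12. Among the complement genes it was -0.24 to 0.38 for C3 around 0.07, -0.46 to 0.52 for C4b around 0.03 and -0.27 to 0.47 for Cfb around 0.10. These intervals include a change of zero in all 9 cases and do not show that the levels were equal.

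The differences within pairs are given without a test. In pair 1, AngII+CsA was above AngII by more than 0.4 log2 for 4 of the 9 genes, namely Lcn2 (0.89), C4b (0.75), Cfb (0.55) and C3 (0.43), beside 14.9% of all genes. Saa1, Saa2, Saa3, Hp and Ptx3 differed there by -0.08 to 0.05. With normexp 3 of the 9 were above by more than 0.4 in pair 1, and Lcn2 differed there by 0.15. In pair 2, AngII+CsA was below AngII for 8 of the 9 genes, all but Lcn2, beside 49.3% of all genes, and for 6 of the 9 with normexp. In pair 3, AngII+CsA was below AngII for the 7 genes well above background there, beside 52% of all genes. Their differences were -0.63 to -0.10. Counting Lcn2 and Saa2, AngII+CsA was below AngII in pair 3 for 8 of the 9 genes with normexp. The number was 9 of the 9 with quantile normalization and in the authors' deposited table. With normexp Ptx3 turned to 0.05 there and C3 was at -0.02, so the direction of Ptx3 depends on background correction. Lcn2 and Saa2 were not well above background on either array of that pair. They differed there by -0.19 and -0.65, and their direction in it was not reliably measured. In pair 4, AngII+CsA was below AngII for 3 of the 9 genes. The number was 4 of the 9 with normexp, with quantile normalization and in the authors' deposited table. The median pair 4 difference was 0.03 over the 9 genes and -0.01 over all genes tested.

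Without replicate 1 the differences of C3, C4b and Cfb with the block turned to -0.05, -0.21 and -0.05, and that of Lcn2 was 0.05, against 0.26 with all pairs. Saa1 was the only one of the 9 that was lower with AngII+CsA in 4 of 4 pairs, a pattern that 9.75% of all genes had, and its difference in pair 1 was -0.0035. That difference was 0.0013 after quantile normalization, 0.03 in the authors' deposited table and 0.05 with normexp. The pattern of Saa1 thus depends on the processing. None of the 9 was higher in 4 of 4 pairs, beside 4.98% of all genes. The median of the 9 differences was -0.07, with 4 positive and 5 negative, and the median over all genes tested was -0.02.

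**Figure D4:**
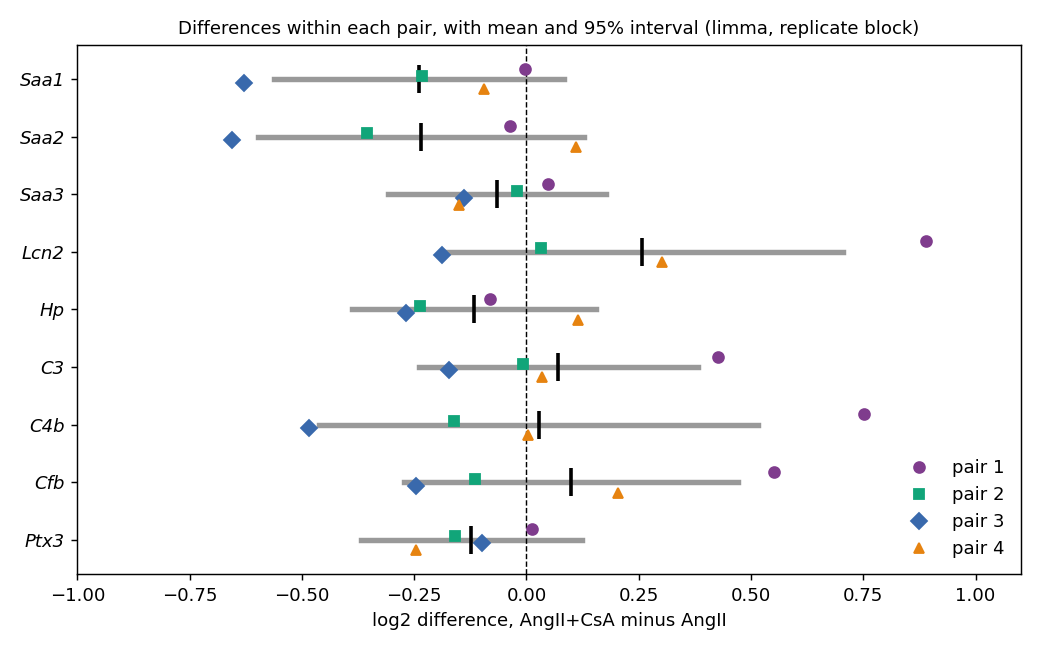
Log2 difference, AngII+CsA minus AngII (x axis), of the 9 genes within each of the 4 pairs (symbols), with the mean (black tick) and its 95% interval from limma with the replicate block (grey bar). Every interval crosses zero. In pair 1 Lcn2, C4b, Cfb and C3 lie to the right, at 0.43 to 0.89.

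Other genes of the acute phase response were measured for 10 of 24 listed members, of which 6 had negative and 4 positive differences (median -0.15) and 0 passed either fit. The 3 with the smallest p were lower in 4 of 4 pairs without passing. They were Agt, the precursor of angiotensin (-0.30), Itih4, an inter-alpha-trypsin inhibitor heavy chain (-0.22), and Apcs, serum amyloid P component (-0.25), with adjusted p of 0.892 to 0.895 by limma with the block. None of the 10 had a range above 2 log2.

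Of 26 further complement components 12 were tested, with 8 negative and 4 positive differences (median -0.05) and 0 passing. Hc, which encodes complement C5, differed by -0.51 and C1qb, a chain of C1q, by -0.29, each lower in 4 of 4 pairs (adjusted p = 0.892 by limma with the block). Cfp, which encodes properdin, the stabiliser of the alternative pathway, differed by -0.19 and was lower in 3 of 4 pairs.

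A range above 2 log2 was found for C1s1, Masp1 and Colec12, which were named after their values were seen. C1s1, a protease of the C1 complex, had log2 levels of 2.10, 3.37, 0.54 and 3.12 in AngII+CsA replicates 1 to 4, against 1.67, 3.33, 0.79 and 3.12 in AngII replicates 1 to 4. It was low in replicate 3 and high in replicates 2 and 4 in both groups, as the first C3 probe was.

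Of 21 complement regulators and receptors 13 were tested, with 9 negative and 4 positive differences (median -0.09) and 0 passing. Itgax, the alpha chain of complement receptor 4, differed by -0.59 in the same direction in 4 of 4 pairs (adjusted p = 0.892 by limma with the block). Cd55, which speeds the decay of C3 convertases, differed by -0.29 and the C5a receptor C5ar1 by -0.19, each lower in 4 of 4 pairs. Clu, which encodes clusterin, had the one range above 2 log2 in that list, 2.23.

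Of 26 cytokines, receptors and factors that act upstream of the acute phase 21 were tested, with 11 negative and 10 positive differences (median -0.01) and 0 passing. Tlr2, a receptor for bacterial lipoproteins, differed by 0.42 and Socs3, the feedback inhibitor of STAT3 signalling, by 0.34, each higher in 4 of 4 pairs (adjusted p = 0.892 by limma with the block). Il6 differed by -0.58 and was lower in 4 of 4 pairs (adjusted p = 0.892).

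Il6 shared the spread of Saa3 over cultures. Its log2 level was 3.27, 0.56, -0.12 and -0.88 in AngII+CsA replicates 1 to 4, against 3.66, 1.98, -0.09 and -0.41 in AngII replicates 1 to 4. Both replicate 1 arrays were the highest and the range was 23.3-fold. The other upstream genes with a range above 2 log2, named after their values were seen, were Il6st, Osmr, Nfkb1 and Nfkbiz. Il6st was above background on 2 of 4 arrays with AngII+CsA and 2 of 4 with AngII, Nfkbiz on 3 and 2, and Osmr on 4 and 3, so their ranges rest in part on values near background.

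The transcripts with the profile most like Saa3 were found from the mean absolute difference between profiles centred on their own mean over the 8 arrays, among 9888 other genes with a current symbol that were above background on all 8. The 6 closest apart from the listed genes were Spats2l (0.70), Ctsl (0.78), Il6 (0.79), Fgf7 (0.80), Foxa2 (0.86) and Ctla2b (0.88). Each of them was highest on both replicate 1 arrays, and their own ranges were 3.72 to 5.08 log2. Among the listed genes Saa1 ranked 205 at 1.41, Hp 393 at 1.504 and Cfb 890 at 1.63, while C3 ranked 4416, Ptx3 5803 and C4b 8373. The profiles were not scaled to a common span, so the measure favours genes with wide ranges. A gene with the order of Saa3 and a smaller span ranks further away, as Hp did with a range of 1.88 log2 against 6.06. The 8 arrays are 4 pairs that share slides, so this likeness rests largely on the difference between replicate 1 and the rest.

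**Figure D5:**
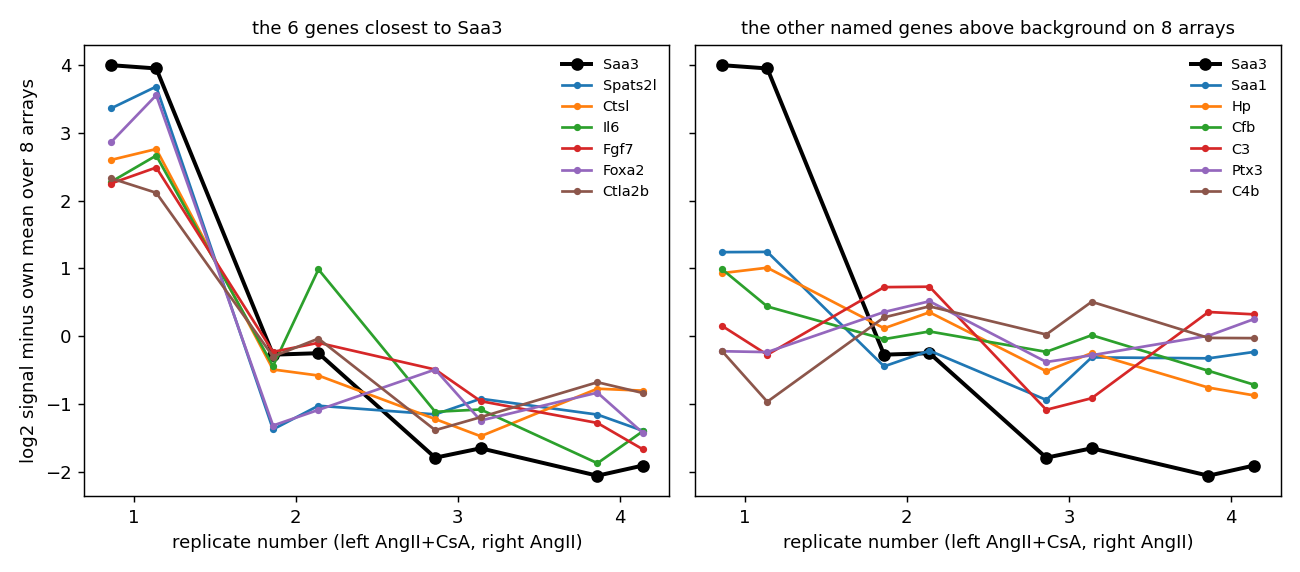
Log2 signal minus the gene's own mean over the 8 arrays (y axis) by replicate number (x axis, AngII+CsA left and AngII right at each number), for Saa3 in black with the 6 closest genes (left) and with the other listed genes above background on 8 arrays (right). Lines join the arrays of a gene and stand for no order. The 6 closest genes have ranges of 3.72 to 5.08 log2, against 6.06 for Saa3 and 0.90 for Ptx3.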

How the data were processed

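RNA of 8 cultures was labelled with Cy3 per the labels' protocols. Per the file headers, the arrays (Agilent design 014868, annotation build mm7) were quantified with version 9.5.3.1 of Feature Extraction. The deposited files give an intensity per spot, already background-subtracted by that software. A second deposited table holds log2 values with a median of 3.01 in each column. Its direction and ranks follow the scanner signals, its method and constant are unknown, and it served as an alternative. Its differences for the named genes lay close to those after quantile normalization. Lcn2, for example, differed in pair 1 by 1.02 against 1.00 log2. It should therefore not be read as independent of that setting.

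Levels are log2 processed signals from which the array's own 75th percentile was subtracted. Controls and spots marked as outliers were dropped, 0 spots were saturated, and repeated spots were averaged per probe. Probes above background on at least 4 arrays were kept, and the probe with the highest mean stood for a gene. The 2 groups were compared with limma 3.58.1 (R 4.3.3, two-sided, p-values adjusted by Benjamini-Hochberg across 14889 genes, threshold 0.05), on the groups alone and with the replicate number as a block. Both fits were also run on data simulated from the blocked fit with independent noise, which does not show how they behave on these arrays. Same-numbered arrays deviated together from their group means (r of 0.70 to 0.86, against -0.76 to 0.26 for other pairs) and share a slide, so the number was treated as a pairing. Of the arrays' 43379 spots, 42.8% to 51.7% were well above background.

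The 9 genes, the 4 other gene lists, the marker lists and the motifs were chosen with earlier results of these data known. The text names all 9 genes, the 3 members of each list with the smallest p with the block, and the 6 genes closest to the member with the widest range. Genes named for a wide range, and the 4 called genes, were named after their values were seen. Alternatives covered background correction, scaling, the filter, outlier spots, probe choice, a variance trend, the second deposited table, and single arrays or pairs left out. Fits on the groups alone without a whole pair were added after seeing the data. Sequences came from the files and from RefSeq.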

Additional observations from a re-analysis of the deposited data

Results flagged for a closer look

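In groups of 4 arrays, a sample was marked where its gap to the nearest other divided by the range of the group was above Dixon's 95% critical value, which chance gives in about 1 group in 20. The genes were chosen with these levels known and the 2 groups share slides. That rate therefore does not apply to them, and the marks are a description and no test. Of 24 groups (12 probes in 2 groups) 4 were marked. Saa1 was marked in AngII, where replicate 1 stood at 3.69 and the next array at 2.23, and its AngII+CsA replicate 1 array had the same level. Lcn2 was marked in AngII+CsA, where replicate 3 stood at -5.37, below background. The second Ptx3 probe was marked in both groups, where replicate 1 stood at -0.65 with AngII+CsA and at -0.495 with AngII. The other 6 arrays were not well above background. Which property of replicate 1 or of its slide goes with these values was not tested.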

How the results depend on the processing

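The 9 genes were called in 0 of the 29 other settings, with a smallest adjusted p of 0.175. Of 259 differences computed there, 227 kept their direction and 32 turned. Several settings, such as the blocks, the variance trend and the filters, leave these differences as they were. Others, such as the fits without a whole pair, repeat the same differences with and without the block. The counts therefore do not measure how stable the directions are. With normexp background correction, with and without the replicate block, the differences of Lcn2, Hp and Ptx3 turned to -0.0688, 0.0244 and 0.0023; the cause was not tested. With arrays or pairs left out, the differences ran from -0.22 to 0.45 for C3, -0.29 to 0.20 for C4b, -0.21 to 0.29 for Cfb, -0.45 to 0.20 for Hp, -0.35 to 1.01 for Lcn2, -0.26 to 0.0284 for Ptx3, -0.69 to 0.14 for Saa1, -0.37 to -0.09 for Saa2 and -1.41 to 1.24 for Saa3. Without pair 1 they were -0.0479 for C3 and -0.0518 for Cfb. Over all genes, 0 were called on the groups alone (43 at an unadjusted p under 0.05, by limma), 4 with the replicate block, 6 with the number as a random block, 3 with the block and normexp, 2 with the block and the authors' table, 0 when dim probes were kept in the blocked fit (28785 genes tested), and 0 with any array or pair left out. The block, which pairs the arrays, changed no call among the 9 genes. The range of Lcn2 was 0.35 and that of Saa2 0.44 with normexp, and that of Ptx3 1.34 with quantile normalization and 1.38 in the authors' deposited table. Signals near background limit what can be said of Lcn2 and Saa2, which the stricter filter left out.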

Other observations

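The order of the means over the replicate numbers in the 4 other gene lists is given as a description. The order 1, 2, 3, 4 from high to low, seen in Saa3, Hp and Cfb, was held by 4 of the 56 tested genes of the 4 lists (Colec12, Il6, Il1r1 and Socs3), a share of 7.14%, and by 8.37% of all genes. The order 2, 4, 1, 3, seen in the first probes of C3 and Ptx3, was held by 5 of the 56 (Itih3, C1s1, Hc, Lifr and Nfkb1). That is a share of 8.93%, beside 5.47% of all genes. These genes were named after their values were seen.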
